A study of Mus musculus with 20 samples.

Results

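Oxysterols, the oxidised forms of cholesterol, are made by a few enzymes and read by a few receptors and binding proteins, and 10 genes of that system were followed in mouse articular chondrocytes, the cells that make and keep the cartilage of joints. The genes were taken by name from the table of all 54532 genes: the enzymes Ch25h, Cyp27a1, Cyp7b1 and Hsd3b7, the nuclear receptors Nr1h2, Nr1h3, Rxra and Rora, the membrane receptor Gpr183, and the sterol carrier Osbp. Per the labels, the chondrocytes came from 6-week-old mice and were treated for 48 h before RNA was sequenced. The treatments were 20 µM 25-hydroxycholesterol-3-sulfate (25HC3S), 20 µM 25-hydroxycholesterol (25HC), 2 µM GW3965, a man-made activator of the liver X receptors (LXR), and DMSO alone (Vehicle), with 5 libraries in each of the 4 groups. 25HC3S differs from 25HC by a sulfate at the 3 position. The labels name no strain, genotype or sex. They also do not say whether the 5 libraries of a group are separate animals or cultures, so p-values cover only the spread between libraries, which may be technical.

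Oxysterols are both products and signals. Ch25h puts a hydroxyl group on cholesterol to give 25HC, Cyp27a1 gives 27-hydroxycholesterol, and Cyp7b1 and then Hsd3b7 convert these oxysterols further towards bile acids. Oxysterols bind the liver X receptors LXRα (Nr1h3) and LXRβ (Nr1h2), which pair with a retinoid X receptor such as Rxra to switch on genes of cholesterol export, and sterols are also ligands of the nuclear receptor Rora. The dihydroxylated oxysterols that Cyp7b1 makes from 25HC attract leukocytes through Gpr183 (also called EBI2), while Osbp, the founding oxysterol-binding protein, binds 25HC and carries cholesterol between the endoplasmic reticulum and the Golgi.

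The libraries held 14653777 to 19365220 fragments in genes, and each value is given in FPKM, fragments divided by gene length and by library depth. All 9 chondrocyte markers examined, among them Col2a1, Acan and Sox9, passed the filter on low values (at least 1 FPKM in at least 5 of the 20 libraries), and so did 13 of 14 macrophage markers and 5 of 5 markers of fibroblasts and synovial lining. The chondrocyte markers summed to 2338 to 3655 FPKM over the 25HC3S libraries, 3629 to 3985 with 25HC, 3835 to 4760 with GW3965 and 1646 to 4999 with Vehicle. Vehicle replicates 2, 3 and 4 and 25HC3S replicate 1 stood apart from the other 16 libraries, with 237 to 1171 genes at exactly 1 fragment against 1808 to 2057. The 4 were not alike: mitochondrial genes held 3.14% of the fragments in 25HC3S replicate 1 and 0.369%, 4.07% and 3.60% in Vehicle replicates 2, 3 and 4, against 0.889% to 1.41% in the other 16. Because 3 of these 4 libraries are Vehicle, the members' differences from Vehicle and the counts of called genes that moved are also given without them. That setting was chosen after seeing the data, and its comparisons with Vehicle rest on 2 Vehicle libraries.

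Per length of gene, Osbp and Rxra were the most highly expressed of the 10 genes in each of the 4 groups, followed by Nr1h2 and Ch25h. Osbp averaged 24.3 ± 3.54 FPKM with 25HC3S, 22.1 ± 0.756 with 25HC, 22.2 ± 0.929 with GW3965 and 24.3 ± 3.31 with Vehicle (SD, n = 5 each, as throughout). Osbp and Rxra overlapped in every group, and Rxra overlapped Nr1h2 in GW3965 and Vehicle. Ch25h overlapped the next gene in the order in 25HC3S, GW3965 and Vehicle, and Nr1h3 overlapped Gpr183 in Vehicle. Nr1h2 lay above Ch25h without overlap in the 3 treated groups, while in Vehicle the lowest Nr1h2 library, at 9.88 FPKM, was below the highest Ch25h library, at 11.4 FPKM. Rora, Cyp27a1 and Nr1h3 came next and overlapped each other in turn in every group, at group means of 2.51 to 5.43 FPKM. Gpr183 and Cyp7b1 were the lowest of the genes that passed the filter, at group means of 0.919 to 2.44 FPKM, and Hsd3b7 was close to 0. Gpr183 ranked above Cyp7b1 in 25HC, GW3965 and Vehicle, with overlap in Vehicle, and below it with 25HC3S, where the 2 genes overlapped. LXRβ stood well above LXRα: the ratio of Nr1h2 to Nr1h3 FPKM was 5.25 to 6.81 over the 25HC3S libraries, 5.83 to 7.16 with 25HC, 4.49 to 5.60 with GW3965 and 5.22 to 7.34 with Vehicle.

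**Figure D1:**
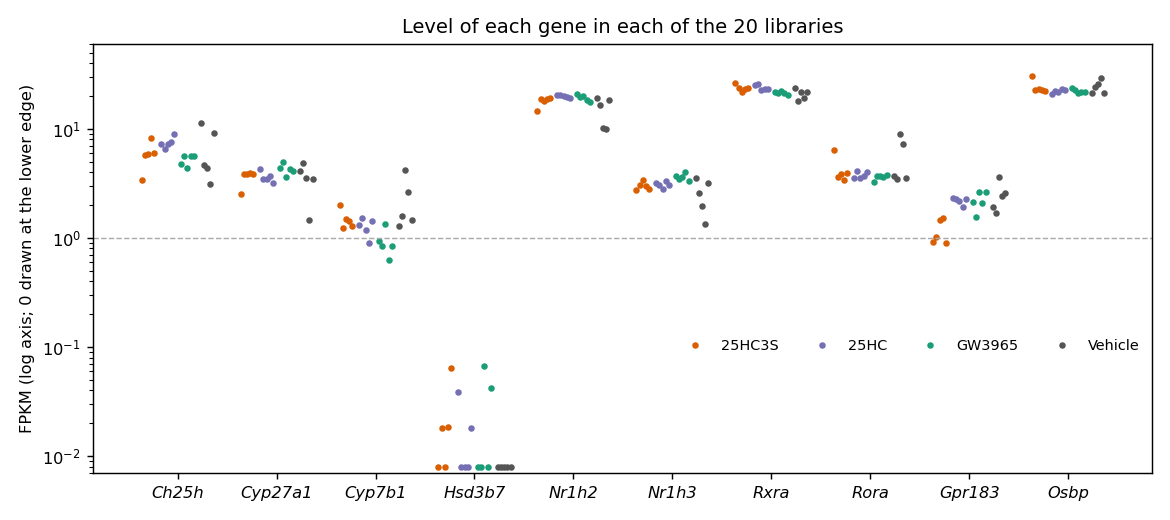
FPKM of the 10 genes (log axis) in each of the 20 libraries, with 1 point per library, coloured by treatment, and replicates 1 to 5 from left to right. Osbp, Rxra and Nr1h2 lie highest, Hsd3b7 reaches at most 0.0662 FPKM, and the 5 points of 25HC3S lie lowest for Gpr183. The dashed line marks 1 FPKM.

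The bases upstream of a RefSeq start are shown for 3 genes: Gpr183 and Nr1h3, which were called in some treatments and not in others, and Ch25h, which was called only without the 4 libraries. They come from RefSeq promoter windows on build GRCm38.p6, which were found for 9 of the 10 genes, all but Cyp7b1. Each runs 5′ to 3′ on the gene's strand and stops at the first base within the window that GENCODE M21 gives to an exon of the gene. The Nr1h3 window lies inside the gene as GENCODE M21 draws it: its RefSeq start is 7718 bases downstream of the annotated 5′ end, and 1 of 8 annotated transcripts starts upstream of it. All 3 genes are on the minus strand, and the windows are chr14:121965196-121965443 for Gpr183, chr2:91195152-91195366 for Nr1h3 and chr19:34475165-34475398 for Ch25h. Capitals mark motif matches.
Gpr183: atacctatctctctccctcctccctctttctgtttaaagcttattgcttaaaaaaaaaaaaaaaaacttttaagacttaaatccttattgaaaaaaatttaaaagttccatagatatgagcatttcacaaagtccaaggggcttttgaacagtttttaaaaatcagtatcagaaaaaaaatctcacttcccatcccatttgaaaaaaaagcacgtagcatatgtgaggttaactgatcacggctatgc
Nr1h3: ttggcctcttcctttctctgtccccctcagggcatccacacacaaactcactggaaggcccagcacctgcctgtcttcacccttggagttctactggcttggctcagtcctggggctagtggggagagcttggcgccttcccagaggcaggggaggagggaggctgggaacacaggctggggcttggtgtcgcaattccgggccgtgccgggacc
Ch25h: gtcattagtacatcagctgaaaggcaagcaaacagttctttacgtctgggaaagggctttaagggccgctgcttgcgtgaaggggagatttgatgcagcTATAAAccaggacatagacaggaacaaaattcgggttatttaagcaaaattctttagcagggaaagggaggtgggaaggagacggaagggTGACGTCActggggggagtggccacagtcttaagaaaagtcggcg
Windows of 300 bases, which run 50 bases past the start, were searched on both strands. AGGTCA, the core element that nuclear receptors bind, was in 16.3% of all 32851 windows of the reference and in none of the windows of these 3 genes. That core repeated with a spacer of 4 bases, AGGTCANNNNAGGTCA, the element known for LXR with RXR, was in 0.0152% of all windows and in none of the 11 windows of the 9 genes. Only exact letters were matched, and only 5 of all 32851 windows held this repeat. Its absence from 11 windows therefore carries no information on LXR binding. GAAANNGAAA, the core of the interferon-response element, was in 3.44% of all windows and in none of the 11. Ch25h had TATAAA, the letters of a TATA box, from 151 bases before its start (13.6% of all windows hold them). It also had TGACGTCA, the letters of a cyclic AMP response element, from 61 bases before the start (1.79%). Whether either match works as such an element was not tested. These last 2 motifs were added after the windows were read. AGGTCA occurred in 1 member window, an alternative start of Rxra, with 2 matches.

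Across the whole table, 12752 genes passed the filter and were tested with limma on log2(FPKM + 1), and a gene was called at a Benjamini-Hochberg adjusted p under 0.05. Of the 10 genes, 9 were tested. With 25HC3S against Vehicle 0 of the 9 were called higher, beside 0.463% of all genes tested, and 1, Gpr183, lower, beside 1.14%. In the comparison of GW3965 with Vehicle 1, Nr1h3, was called higher, beside 3.49% of all genes, and 1, Cyp7b1, lower, beside 2.97%. For 25HC against Vehicle limma called 0 higher and 0 lower, beside 0.0314% and 0.00784% of all genes. At an unadjusted p under 0.05 there were 3 of the 9 in that comparison: Nr1h2, Rxra and Cyp7b1, a share near the 30.3% of all genes tested that passed the same limit. For all genes that share was 17.1% for 25HC3S against Vehicle, 31.9% for GW3965 against Vehicle and 7.12% for 25HC3S against 25HC. For 25HC3S against 25HC, at the same dose and time, 0 were called higher, beside 0.157%, and 1, again Gpr183, lower, beside 0.659%. Without the 4 libraries Gpr183 was again the 1 called in that comparison, and the other 8 differences lay between -0.20 for Ch25h and 0.08 for Cyp27a1. The exact permutation p-values come from 40 tests, of 10 genes in 4 comparisons, and are not adjusted. The 3 comparisons with Vehicle share their Vehicle libraries. GW3965 was used at 2 µM and the oxysterols at 20 µM, so their values stand side by side without a test between them.

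**Figure D2:**
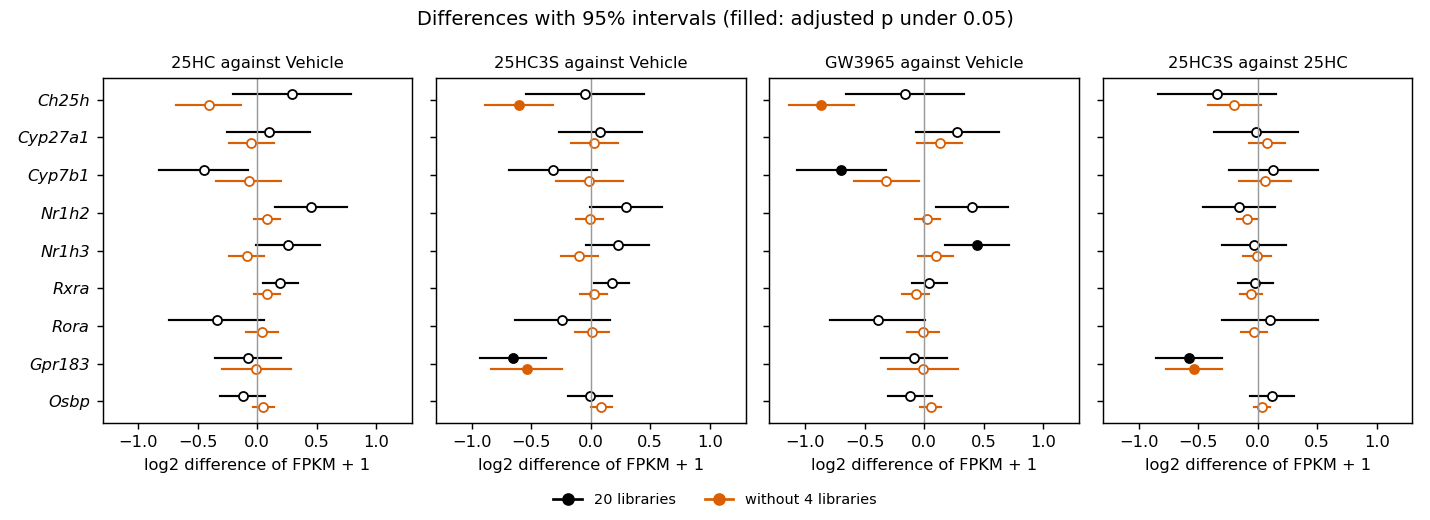
Difference in mean log2(FPKM + 1) of each tested gene in the 4 comparisons, first-named group minus second-named group, with 95% intervals from limma, in all 20 libraries (black) and without the 4 libraries that stand apart (orange). Filled points have an adjusted p under 0.05. Gpr183 is filled in both fits of both 25HC3S comparisons, Nr1h3 and Cyp7b1 are filled for GW3965 in the 20 libraries only, and Ch25h is filled for 25HC3S and GW3965 against Vehicle only without the 4.

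Ch25h, the enzyme that makes 25HC itself, lies on chromosome 19 (34473786 to 34475135, minus strand, GRCm38; ENSMUSG00000050370) and has a single exon. Its level was 3.42, 5.73, 5.89, 8.23 and 6.01 FPKM in 25HC3S replicates 1 to 5 and 7.28, 6.53, 7.31, 7.51 and 8.93 FPKM in the 25HC replicates. The GW3965 replicates had 4.79, 5.68, 4.35, 5.59 and 5.64 FPKM, and the Vehicle replicates 11.4, 4.68, 4.36, 3.12 and 9.23 FPKM. Vehicle was split: replicates 1 and 5 held the highest values of all 20 libraries, and replicates 2, 3 and 4 were among the lowest, so Vehicle overlapped every treated group. No difference was called in the 20 libraries. The log2 difference was -0.05 ± 0.24 for 25HC3S, 0.29 ± 0.24 for 25HC and -0.16 ± 0.24 for GW3965 against Vehicle (SE, limma), and -0.34 for 25HC3S against 25HC, with a 95% interval of -0.84 to 0.15.

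Without the 4 libraries, Ch25h was called lower with 25HC3S and GW3965. The difference was -0.60 ± 0.13 with 25HC3S (limma adjusted p = 0.0178) and -0.86 ± 0.13 with GW3965 (limma adjusted p = 0.000467). It was -0.41 ± 0.13 with 25HC, which did not pass (limma adjusted p = 0.689). In that setting 2.63% of all genes were called lower with 25HC3S, 3.79% with GW3965 and 0.00784% with 25HC. The 2 Vehicle libraries behind these values are the 2 highest of the 20. Library weights in limma, which down-weight variable libraries, are estimated from these same data, so that fit is not independent of leaving out the 4. With the weights Ch25h was called lower, by -0.53 ± 0.13 with 25HC3S (limma adjusted p = 0.0212) and -0.77 ± 0.13 with GW3965 (limma adjusted p = 0.000398). These were the only calls of Ch25h under 29 other settings in each of these 2 comparisons, and its difference ranged from -0.60 to 0.16 with 25HC3S and from -0.86 to 0.05 with GW3965. Ch25h shares 159 exon bases with Gm26902, a non-coding RNA on the other strand, which was at most 0.566 FPKM, and no source used here gives the strand setting of the counting.

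Ch25h is known as an interferon-induced gene. Of 13 interferon-stimulated genes tested, 1 was called lower with 25HC3S and 6 with GW3965 against Vehicle, and 0 higher in either. Of all genes 1.14% and 2.97% were called lower there. The 6 were Ifit1, Ifit2, Oasl2, Rsad2, Ifi44 and Cxcl10, with log2 differences of -1.26 for Ifit1 to -0.40 for Ifit2, and Ifit1, at -0.92, was the 1 with 25HC3S. The median of the 13 was -0.30 with 25HC3S, 0.06 with 25HC and -0.27 with GW3965, beside medians of 0.02, 0.03 and 0.02 over all genes tested. Limma called 0 of the 13 for 25HC against Vehicle and 0 for 25HC3S against 25HC, and 2 and 6 had an unadjusted p under 0.05, beside 30.3% and 7.12% of all genes. With the 4 libraries left out, the number called lower was 5 with 25HC3S, 0 with 25HC and 7 with GW3965, and 4 for 25HC3S against 25HC, with Ifit1 among them wherever any was called. For all genes the shares called lower were then 2.63%, 0.00784%, 3.79% and 4.7%, in the same order. The medians against Vehicle were then -0.46 with 25HC3S, -0.19 with 25HC and -0.51 with GW3965, so the direction with 25HC turned. The Ifit and Oas genes have close paralogues, between which fragments could have been split.

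Cyp27a1 (chromosome 1, 74713574 to 74737892, plus strand; ENSMUSG00000026170) did not differ between treatments beyond the spread of the libraries. It had 2.51, 3.84, 3.89, 3.94 and 3.87 FPKM with 25HC3S, 4.30, 3.50, 3.48, 3.69 and 3.19 with 25HC, 4.34, 4.97, 3.63, 4.25 and 4.07 with GW3965, and 4.08, 4.88, 3.54, 1.47 and 3.50 with Vehicle. Vehicle replicate 4 and 25HC3S replicate 1, both among the 4 libraries, were the lowest, and the groups overlapped. Its differences against Vehicle were 0.08 with 25HC3S, 0.10 with 25HC and 0.28 with GW3965, each ± 0.17 (SE), and none was called. They were 0.03, -0.05 and 0.13 without the 4 libraries, and again none was called. Against 25HC the 25HC3S value differed by -0.01, with a 95% interval of -0.36 to 0.33.

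Cyp7b1 (chromosome 3, 18071950 to 18243338, minus strand; ENSMUSG00000039519), which removes 25HC by hydroxylation and in doing so makes a ligand of Gpr183, was lowest with GW3965. The values were 2.02, 1.22, 1.50, 1.42 and 1.29 FPKM with 25HC3S and 1.31, 1.52, 1.18, 0.900 and 1.44 FPKM with 25HC. They were 0.937, 0.840, 1.35, 0.624 and 0.839 FPKM with GW3965, against 1.29, 1.60, 4.20, 2.65 and 1.46 FPKM with Vehicle. GW3965 replicate 3 was the only GW3965 library that overlapped Vehicle, and Vehicle replicates 3 and 4 were far above the rest.

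The GW3965 difference was -0.70 ± 0.18 (SE, limma adjusted p = 0.0249; exact two-sided permutation p = 0.0159, n = 5 each). It shrank to -0.32 ± 0.13 without the 4 libraries, which are the 4 highest Cyp7b1 libraries, and was then not called (limma adjusted p = 0.169). Leaving out 1 library at a time, the call held in 15 of 20 fits and was lost without Vehicle replicate 4 and without GW3965 replicate 1, 2, 4 or 5. Over 28 other settings the limma adjusted p was 0.00752 to 0.200. The Cyp7b1 differences from Vehicle were -0.32 ± 0.18 with 25HC3S and -0.45 ± 0.18 with 25HC, and neither was called. With the 4 left out they were -0.01 ± 0.13 with 25HC3S and -0.07 ± 0.13 with 25HC. The difference of 25HC3S from 25HC was 0.13, with a 95% interval of -0.24 to 0.50.

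Hsd3b7 (chromosome 7, 127800604 to 127803802, plus strand; ENSMUSG00000042289) was hardly detected, with 13 fragments in all 20 libraries together and 0 in 13 of them. It reached 0.0642 FPKM in 25HC3S replicate 5, 0.0386 in 25HC replicate 1 and 0.0662 in GW3965 replicate 3, and all 5 Vehicle libraries had 0 fragments. A count of 0 allows up to 3 fragments, which is at most 0.0752 FPKM in any library, so no difference was detectable at this depth. Of its 2769 exon bases it shares 1717 with Gm49388 on the same strand and 1729 with 9430064I24Rik on the other, and fragments there could have been split between genes or dropped by the counting, so its level is uncertain.

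Of 13 other enzymes of oxysterol and side-chain metabolism 7 passed the filter. With GW3965 against Vehicle, Acox2, an oxidase of bile acid side chains, rose by 0.77 ± 0.10 and Ebp, a sterol isomerase, by 0.57 ± 0.11, while Cyp39a1, which hydroxylates 24-hydroxycholesterol, fell by 0.41. The Cyp39a1 value was -0.15 ± 0.08 without the 4 libraries and was then not called. Limma called 0 of the 7 for 25HC against Vehicle, where 2 had an unadjusted p under 0.05, a share near the 30.3% of all genes. Cyp46a1, the brain cholesterol hydroxylase, did not pass the filter, and Cyp7a1 and Cyp8b1, the liver enzymes of bile acid synthesis, were at 0 FPKM in all 20 libraries.

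Of the genes that add or remove sulfate or fatty acids, 6 of the 10 found in the table were tested and limma called 0 in each of the 4 comparisons, while 0 to 2 had an unadjusted p under 0.05. Sult2b1, the sulfotransferase that makes 25HC3S from 25HC, did not pass the filter and was at most 0.186 FPKM in any library. Papss2, which makes the sulfate donor and is known for its role in cartilage, was well expressed, at 39.1 ± 8.50 FPKM with 25HC3S, 39.2 ± 1.28 with 25HC, 37.6 ± 2.04 with GW3965 and 48.1 ± 12.7 with Vehicle. It was not called in the 20 libraries, and without the 4 it differed by -0.15 ± 0.04 for 25HC3S against 25HC (limma adjusted p = 0.0433).

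Nr1h2 (chromosome 7, 44549616 to 44553951, minus strand; ENSMUSG00000060601), which encodes LXRβ, varied mainly with the 4 libraries: its coefficient of variation was 17.1% over all 20 libraries and 4.69% over the other 16. Its level was 14.5, 18.7, 18.0, 18.9 and 19.1 FPKM with 25HC3S and 20.3, 20.4, 20.1, 19.5 and 19.2 FPKM with 25HC. GW3965 libraries had 20.8, 19.5, 19.8, 18.2 and 17.6 FPKM, and Vehicle libraries 19.0, 16.5, 10.1, 9.88 and 18.5 FPKM. The 4 libraries that stand apart held the 4 lowest values, and the other 16 stayed between 17.6 and 20.8 FPKM. The 5 25HC libraries lay above all 5 Vehicle libraries, as they did for 1.41% of all genes, with a difference of 0.45 ± 0.14 that was not called (limma adjusted p = 0.147; exact permutation p = 0.00794, the smallest that 5 against 5 libraries can give). Leaving the 4 libraries out, it was 0.08 ± 0.05. With 25HC3S and GW3965 the differences of Nr1h2 from Vehicle were 0.30 and 0.40 in the 20 libraries and -0.01 and 0.03 without the 4, and none was called. All 5 25HC3S libraries lay below all 5 25HC libraries for 2 of the 10 genes, Nr1h2 and Gpr183, as they did for 4.02% of all genes. For Nr1h2 that difference was -0.16 ± 0.14 and not called, with a 95% interval of -0.46 to 0.15.

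Nr1h3 (chromosome 2, 91184061 to 91202834, minus strand; ENSMUSG00000002108), which encodes LXRα and is itself a known target of LXR in human macrophages, was highest with GW3965. It had 2.73, 3.08, 3.43, 2.97 and 2.80 FPKM with 25HC3S and 3.21, 3.05, 2.81, 3.34 and 3.04 FPKM with 25HC. It had 3.71, 3.50, 3.65, 4.05 and 3.33 FPKM with GW3965, against 3.52, 2.57, 1.94, 1.34 and 3.17 FPKM with Vehicle. GW3965 libraries overlapped Vehicle replicate 1, and the 3 Vehicle libraries that stand apart were the 3 lowest of all 20.

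The GW3965 difference of Nr1h3 was 0.44 ± 0.13 (SE, limma adjusted p = 0.0440; exact two-sided permutation p = 0.0238, n = 5 each). It was 0.10 ± 0.07 without the 4 libraries and not called (limma adjusted p = 0.517), and the call held in 4 of the 20 fits that left out 1 library, those without Vehicle replicate 1, 2 or 5 or 25HC3S replicate 1. Over 28 other settings the limma adjusted p was 0.00686 to 0.517. The Nr1h3 values against Vehicle were 0.23 with 25HC3S and 0.26 with 25HC, turned to -0.10 and -0.09 without the 4 libraries, and were called in neither setting. Of 11 known LXR targets tested, 9 were called higher with GW3965 in the 20 libraries, Nr1h3 among them, beside 3.49% of all genes. Leaving out the 4 libraries, 8 of the 9 were still called, all but Nr1h3, and Lpl, a lipase, was added. The share of all genes called higher in that setting is not given here. Abca1, which exports cholesterol, had 111 ± 2.10 FPKM with GW3965, against 11.2 ± 2.66 with Vehicle, and Abcg1, another exporter, 35.4 ± 1.61 with GW3965, against 1.88 ± 0.400 with Vehicle. Srebf1, the regulator of fatty acid synthesis, rose by 2.88 ± 0.12 on the log2 scale, the fatty acid desaturase Scd1 by 2.52 ± 0.17, the phospholipid enzyme Lpcat3 by 1.64 ± 0.10 and Mylip, which marks the LDL receptor for degradation, by 1.28 ± 0.06. The lipid-carrier genes Apoe, at 2.57 ± 0.60, and Pltp, at 0.99 ± 0.26, were also called, but their differences shrank to 1.16 ± 0.08 and 0.30 ± 0.07 without the 4 libraries. The median log2 difference of the 11 was 1.64, beside 0.02 over all genes, and 1.39 without the 4 libraries. Fragments of Scd1 could have been split with its close paralogues. With the oxysterols, Abca1 had 9.55 ± 2.04 FPKM with 25HC3S and 5.96 ± 0.482 with 25HC. Abca1 was lower with 25HC than with Vehicle, at a difference of -0.79 ± 0.13 (limma adjusted p = 0.0240), and was the 1 gene of the 11 called there; without the 4 libraries it was -0.46 ± 0.06 and still called. Scd1 was the 1 called with 25HC3S against Vehicle, at -0.92 ± 0.17, and without the 4 libraries Abcg1 was also called there, higher by 0.37 ± 0.08. 25HC3S exceeded 25HC by 0.58 ± 0.13 for Abca1 and 0.70 ± 0.12 for Abcg1 (limma adjusted p = 0.0366 and 0.00539), the 2 of the 11 called in that comparison. With the other 16 libraries alone, Srebf1, Scd1 and Pltp were called lower there as well.

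Rxra (chromosome 2, 27676440 to 27762957, plus strand; ENSMUSG00000015846), the partner of both LXRs, was among the steadiest genes. It had 26.3, 23.8, 21.7, 23.0 and 23.6 FPKM with 25HC3S and 25.0, 25.7, 22.9, 23.0 and 23.2 FPKM with 25HC. It had 21.9, 21.3, 22.4, 21.2 and 20.6 FPKM with GW3965, and 23.5, 18.2, 21.9, 19.1 and 21.8 FPKM with Vehicle. The groups overlapped, and the differences against Vehicle were 0.18, 0.19 and 0.04 for 25HC3S, 25HC and GW3965, each ± 0.07 (SE), with none called. In the other 16 libraries they were 0.02, 0.08 and -0.07, so the GW3965 value turned in direction, and none was called. For 25HC3S against 25HC the difference was -0.02, with a 95% interval of -0.16 to 0.13. Its paralogue Rxrb averaged 9.58 ± 2.13 FPKM with 25HC3S, 10.3 ± 0.741 with 25HC, 9.29 ± 0.645 with GW3965 and 6.63 ± 3.53 with Vehicle, and was not called either. Its differences from Vehicle were 0.60, 0.72 and 0.58 for 25HC3S, 25HC and GW3965 in the 20 libraries and 0.08, 0.07 and -0.07 without the 4.

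Rora (chromosome 9, 68653786 to 69388246, plus strand; ENSMUSG00000032238) is a nuclear receptor that drives transcription without a partner and binds sterols. Its level was 6.41, 3.61, 3.82, 3.36 and 3.93 FPKM with 25HC3S and 3.51, 4.13, 3.51, 3.72 and 4.03 FPKM with 25HC. With GW3965 it was 3.28, 3.70, 3.68, 3.65 and 3.74 FPKM, and with Vehicle 3.73, 3.50, 9.03, 7.32 and 3.55 FPKM. Vehicle replicates 3 and 4 and 25HC3S replicate 1 were high, and the other 17 libraries stayed between 3.28 and 4.13 FPKM. The differences against Vehicle were -0.24, -0.34 and -0.39 for 25HC3S, 25HC and GW3965, each ± 0.19 (SE), and none was called. Without the 4 libraries they were 0.01, 0.04 and -0.01, so their direction in the 20 libraries rested on the 4 for 25HC3S and 25HC. For 25HC3S against 25HC the interval of the difference was -0.30 to 0.50.

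Among 17 other nuclear receptors and cofactors 9 were tested, and limma called 0 in all 4 comparisons, with 0 to 3 at an unadjusted p under 0.05. Nr1h4 and Nr1i2, the receptors for bile acids and xenobiotics, did not pass the filter. In the other 16 libraries the coactivator Ncoa3 was called lower with 25HC3S, at -0.21 ± 0.05 against Vehicle and -0.22 ± 0.04 against 25HC.

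**Figure D3:**
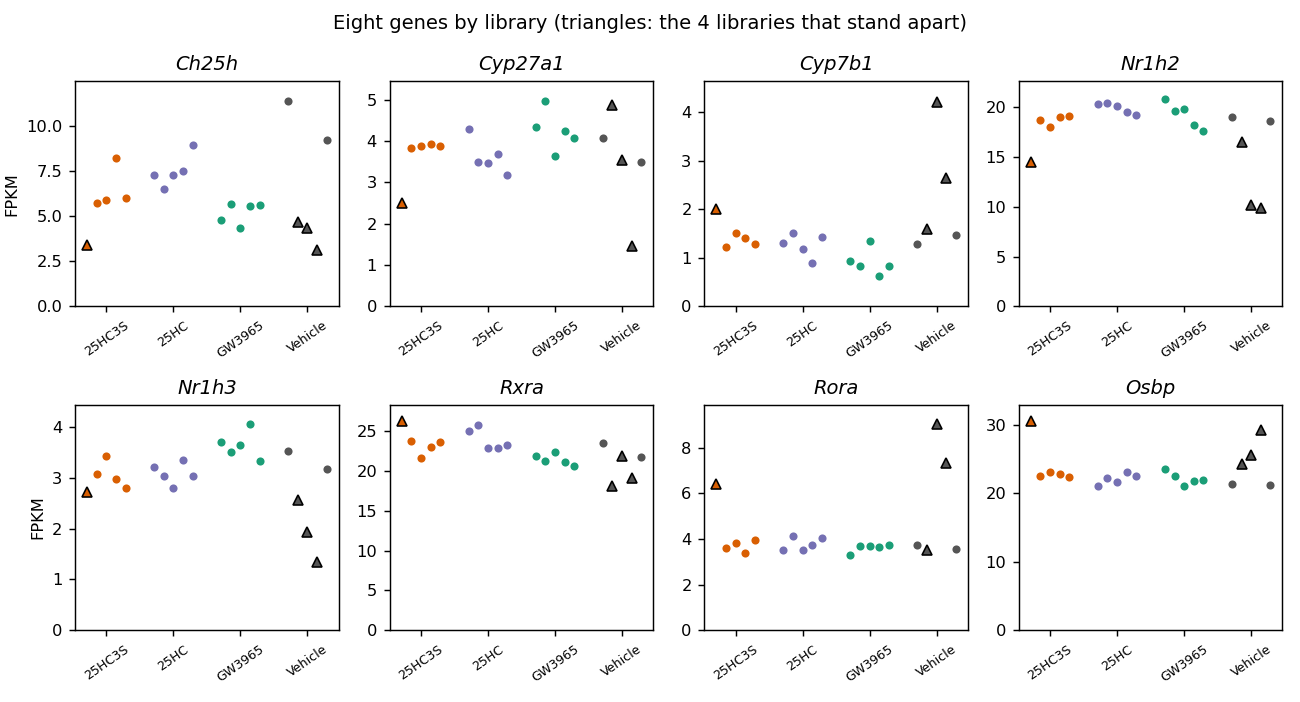
FPKM of 8 of the genes by library, replicates 1 to 5 from left to right in each group, with the 4 libraries that stand apart as triangles and the other 16 as circles. The triangles lie below all circles for Nr1h2 (9.88 to 16.5 against 17.6 to 20.8 FPKM) and Nr1h3 (1.34 to 2.73 against 2.80 to 4.05), and above all circles for Cyp7b1 (1.60 to 4.20 against 0.624 to 1.52) and Osbp (24.3 to 30.6 against 21.1 to 23.6).

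Gpr183, the receptor that guides leukocytes along oxysterol gradients, was the 1 gene of the 10 called lower with 25HC3S, and it was called against both Vehicle and 25HC. It lies on chromosome 14 (121952551 to 121965195, minus strand; ENSMUSG00000051212). The 25HC3S libraries had 0.912, 1.02, 1.45, 1.53 and 0.903 FPKM and the 25HC libraries 2.31, 2.26, 2.20, 1.93 and 2.30 FPKM. The GW3965 libraries had 2.15, 1.56, 2.63, 2.11 and 2.64 FPKM, and the Vehicle libraries 1.90, 1.71, 3.64, 2.41 and 2.56 FPKM. Every 25HC3S library was below every other library of the 20, and the 25HC, GW3965 and Vehicle groups overlapped one another.

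Gpr183 fell with 25HC3S to 1.16 ± 0.303 FPKM, against 2.44 ± 0.756 with Vehicle, a log2 difference of -0.66 ± 0.13 (SE, limma adjusted p = 0.0138; exact permutation p = 0.00794). Its 5 and 5 libraries did not overlap, as was so for 1.14% of all genes with 25HC3S lower. Against 25HC, at 2.20 ± 0.157 FPKM, the difference was -0.57 ± 0.13 (limma adjusted p = 0.0480; exact permutation p = 0.00794). Neither 25HC nor GW3965 differed beyond the spread from Vehicle, at -0.08 ± 0.13 each, with 95% intervals of -0.36 to 0.20 and -0.36 to 0.19, and at -0.01 ± 0.14 each without the 4 libraries. On a log2 scale with 0.1 FPKM added in place of 1, which understates a low gene less, the differences were -0.99 against Vehicle and -0.89 against 25HC. For the pair of GW3965 and Vehicle, 0 of the 10 genes had groups without overlap, where 7.07% of all genes did.

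Both Gpr183 differences held without the 4 libraries, at -0.54 ± 0.14 against Vehicle (limma adjusted p = 0.0448) and -0.53 ± 0.11 against 25HC (limma adjusted p = 0.00680, where 4.7% of all genes were called lower). The call against Vehicle held in all 20 fits that left out 1 library but was lost when only the 2 groups were fitted (limma adjusted p = 0.302). Over 28 other settings its adjusted p was 0.00478 to 0.302 by limma. The call against 25HC lay at the threshold: it was kept in 6 of those 20 fits, the ones without Vehicle replicate 1, 2, 3 or 4, 25HC3S replicate 4 or GW3965 replicate 2, with log2 differences of -0.63 to -0.53 over all 20. Over 28 other settings it was kept in 12, with a limma adjusted p of 0.00150 to 0.149.

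The gene lies within the span of Ubac2 on the other strand, with 0 shared exon bases. Ubac2 averaged 14.1 ± 0.816 FPKM with 25HC3S, 13.4 ± 0.659 with 25HC, 14.2 ± 0.915 with GW3965 and 11.8 ± 1.43 with Vehicle, so the mean of the gene around Gpr183 was above that of Vehicle in each treated group.

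Markers of macrophages differed with 25HC3S too. Of 13 tested, 3 were called lower against Vehicle, Mrc1 with 6.40 ± 0.523 FPKM in 25HC3S against 25.2 ± 5.37 in Vehicle, Adgre1 with 21.1 ± 1.34 in 25HC3S against 38.3 ± 3.46 in Vehicle and Fcgr1 with 3.51 ± 0.732 in 25HC3S against 7.20 ± 1.97 in Vehicle. Cd14 was called higher, with 43.9 ± 6.06 FPKM in 25HC3S against 25.7 ± 2.90 in Vehicle. The same 4 genes were called in the same directions against 25HC. In the 20 libraries 1.14% of all genes were called lower with 25HC3S against Vehicle and 0.659% against 25HC. In the other 16 libraries 7 of the 13 were called lower and 1 higher against Vehicle, and 8 lower and 1 higher against 25HC. The share of all genes called lower was then 2.63% and 4.7%, so it rose as well. With GW3965 Mrc1 and Adgre1 were called lower against Vehicle in the 20 libraries, beside 2.97% of all genes. With 25HC limma called 0 of the 13, with 5 at an unadjusted p under 0.05, beside 30.3% of all genes. The median of the 13 was -0.27 for 25HC3S against Vehicle and -0.63 against 25HC, beside 0.02 and 0.00 over all genes. It was -0.67 against Vehicle and -0.60 against 25HC without the 4 libraries. The summed level of the 14 macrophage markers was 396 to 765 FPKM over the 25HC3S libraries, 739 to 1049 with 25HC, 936 to 1088 with GW3965 and 445 to 1065 with Vehicle. Ptprc, which encodes the leukocyte antigen CD45, was 2.43 ± 0.344 FPKM with 25HC3S, 2.26 ± 0.353 with 25HC, 2.23 ± 0.243 with GW3965 and 2.64 ± 0.396 with Vehicle. Per unit of Ptprc, Gpr183 was 0.305 to 0.676 with 25HC3S, 0.885 to 1.34 with 25HC, 0.653 to 1.14 with GW3965 and 0.657 to 1.37 with Vehicle, so every 25HC3S library was below every 25HC library but they overlapped GW3965 and Vehicle. Per unit of Tyrobp, an adaptor of myeloid receptors, Gpr183 was 0.0325 to 0.0740 with 25HC3S, 0.0523 to 0.0788 with 25HC, 0.0452 to 0.0873 with GW3965 and 0.0571 to 0.311 with Vehicle, and 25HC3S overlapped all 3 other groups. Ptprc and Tyrobp were not among the markers called with 25HC3S in the 20 libraries. Gpr183 was not set against Mrc1, Adgre1 or Fcgr1, which were called lower. Its mean was 1.16 FPKM with 25HC3S and 2.44 with Vehicle. The means were 3.51 and 7.20 for Fcgr1, 21.1 and 38.3 for Adgre1 and 6.40 and 25.2 for Mrc1. The ratios to Ptprc and Tyrobp therefore do not show whether Gpr183 fell more than those 3 markers. How the ratio depends on the marker chosen was not tested.

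Markers of other cell types were lower with 25HC3S in some comparisons as well. Of 3 adipocyte markers tested, 1, the adipokine gene Adipoq, was called lower against 25HC, at -0.89 ± 0.20 (limma adjusted p = 0.0420), and its value against Vehicle, -0.65 ± 0.20, was not called. The median of the 3 was -0.21 against Vehicle and -0.59 against 25HC. In the 20 libraries limma called 0 of the 9 chondrocyte markers and 0 of the 5 fibroblast and synovial markers in either comparison. The same was so for 3 osteoblast and 2 endothelium markers. The osteoblast median was 0.21 against Vehicle and -0.19 against 25HC, and the endothelium median -0.29 and -0.19. Without the 4 libraries the osteoblast median against Vehicle was 0.04, and 1 osteoblast marker was called lower against 25HC. With the 4 libraries left out, Adipoq and Fabp4, a fatty acid carrier, were called lower in both comparisons. For all genes the share called lower was then 2.63% against Vehicle and 4.7% against 25HC. In that setting the chondrocyte markers called lower were Col11a2 against Vehicle and Acan, Comp and Col11a2 against 25HC, and the fibroblast and synovial ones were Dpt against Vehicle and Dpt and Col1a1 against 25HC. These marker genes were chosen for naming after their values were seen.

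Of 5 markers each of B cells, T cells, dendritic cells and neutrophils 0 passed the filter, and Ms4a1, Cd3e, Cd3g and Cd209a were at 0 in all 20 libraries. In RNA from whole cultures, fewer cells of a type and less RNA per cell cannot be told apart, and the part of the macrophage and other markers in the Gpr183 difference was not tested. Over the 20 libraries, which share treatment and depth, the genes most like Gpr183 in log2(FPKM + 1) were Zc3h12d (Pearson r = 0.870), Evi2a (0.869) and Inpp5d (0.861). Leaving the 4 out, their r was 0.806, 0.900 and 0.856.

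**Figure D4:**
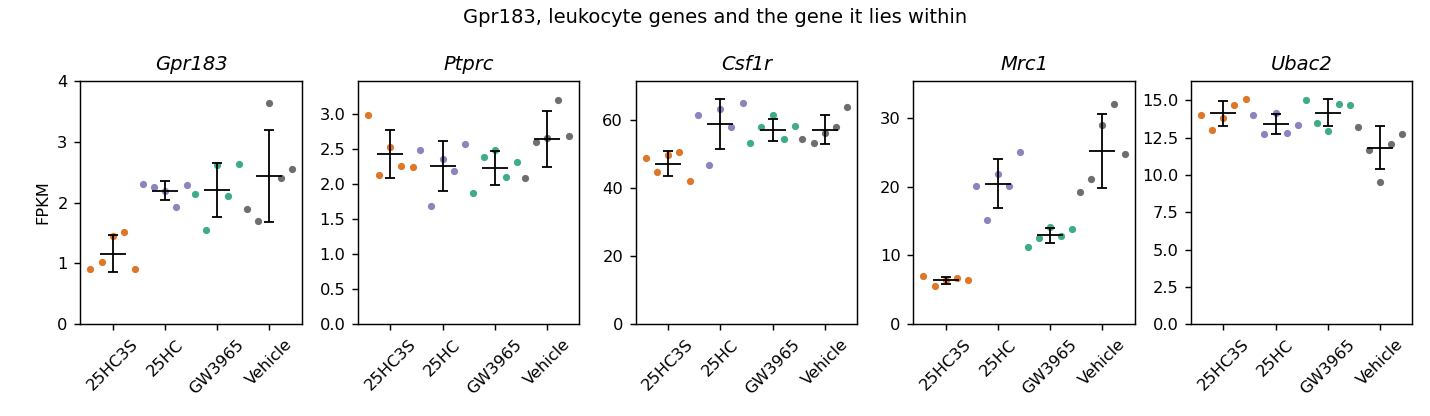
FPKM of Gpr183, of Ptprc, Csf1r and Mrc1 as leukocyte and macrophage genes, and of Ubac2, within whose span Gpr183 lies, by treatment, with 1 point per library and the mean with its SD (n = 5). Gpr183 averages 1.16 with 25HC3S and 2.20 to 2.44 in the other groups. The means of Mrc1 and Csf1r are lowest with 25HC3S, and those of Ptprc and Ubac2 are not.

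Osbp (chromosome 19, 11965844 to 11994105, plus strand; ENSMUSG00000024687) did not differ between treatments beyond the spread of the libraries. It had 30.6, 22.6, 23.1, 22.8 and 22.4 FPKM with 25HC3S and 21.1, 22.3, 21.7, 23.0 and 22.5 FPKM with 25HC. With GW3965 it had 23.6, 22.5, 21.1, 21.8 and 22.0 FPKM, and with Vehicle 21.3, 24.3, 25.6, 29.2 and 21.3 FPKM. The 4 highest values were those of the 4 libraries that stand apart, and the other 16 varied by a coefficient of variation of 3.44%, the lowest of the 10 genes. The differences against Vehicle were 0.00 for 25HC3S and -0.12 for both 25HC and GW3965, each ± 0.09 (SE), and none was called. Without the 4 libraries they were 0.09, 0.05 and 0.05, so the direction turned for 25HC and GW3965, and none was called. For 25HC3S against 25HC the difference was 0.12, with a 95% interval of -0.07 to 0.31.

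Of 15 tested genes of the Osbp family and its membrane contact sites, 1 was called, Osbpl8, a phosphatidylserine exchanger at contacts with the plasma membrane, which was lower with 25HC3S than with Vehicle, at -0.55 ± 0.14 (limma adjusted p = 0.0481). In the other 3 comparisons limma called 0 of the 15, with 1 to 4 at an unadjusted p under 0.05. Without the 4 libraries the Osbpl8 difference was -0.29 ± 0.06 and still called (limma adjusted p = 0.0159), and it was then also called against 25HC, at -0.32 ± 0.05. In that setting Osbpl9, Sacm1l and Col4a3bp were called higher with GW3965 and Col4a3bp with 25HC3S against 25HC. The share of all genes called higher in that setting is not given here.

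Of 10 tested genes of other proteins that bind or pass on sterols, 2, Insig1 and Stard4, were called lower with 25HC3S against Vehicle and the same 2 against 25HC. Of all genes 1.14% and 0.659% were called lower there. Insig1, the sterol-sensing anchor that holds SCAP and SREBP in the endoplasmic reticulum, had 8.12 ± 1.48 FPKM with 25HC3S, 23.0 ± 2.35 with 25HC, 61.7 ± 3.53 with GW3965 and 16.1 ± 2.49 with Vehicle. Its log2 difference of 25HC3S from 25HC was -1.41 ± 0.11 (limma adjusted p = 2.5e-07). Stard4, a cytosolic cholesterol carrier, had differences of -0.74 ± 0.11 against Vehicle and -0.72 ± 0.11 against 25HC. With GW3965 against Vehicle 3 of the 10 were called higher, beside 3.49% of all genes. They were Insig1, by 1.89 ± 0.11, the lysosomal cholesterol carrier Npc2, by 0.61 ± 0.15, and the contact-site cholesterol transporter Gramd1b, by 0.61 ± 0.08. The Npc2 difference with GW3965 was 0.18 ± 0.03 without the 4 libraries. In that setting 5 of the 10 were called higher with GW3965, Stard4 and the SCAP anchor Insig2 being added. The share of all genes called higher in that setting is not given here. Npc2 was then also called lower with 25HC3S against both Vehicle and 25HC, at -0.23 ± 0.03 and -0.20 ± 0.03. For 25HC against Vehicle limma called 0 of the 10, and 4 had an unadjusted p under 0.05, beside 30.3% of all genes. In the 16 other libraries Insig1 was called higher there, at 0.61 ± 0.10 (limma adjusted p = 0.0475).

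Likeness to other genes was taken as the 3 highest Pearson r of log2(FPKM + 1) over the 20 libraries, which share depth and treatment. Ch25h was most like Acp5, Zfp36l1 and A430046D13Rik (r = 0.842 to 0.856), Cyp27a1 like Myo19, Als2cl and Cyth1 (0.892 to 0.900) and Cyp7b1 like Epha3, Aida and Tmem67 (0.919 to 0.926). Nr1h2 was most like Aebp1, Rarg and Plod3 (0.984 to 0.987), Nr1h3 like Hspa2, Eepd1 and Tmem268 (0.928 to 0.938) and Rxra like Tom1l2, Auts2 and Mpp2 (0.824 to 0.884). Rora was most like Nfia, Bmpr2 and Tmem106b (0.983 to 0.984) and Osbp like Tns3, Zfp106 and Eprs (0.942 to 0.957). When the 4 libraries were left out, these values were lower for all but A430046D13Rik, at 0.452 to 0.669 for Rora and 0.389 to 0.559 for Osbp.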

How the data were processed

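RNA of mouse articular chondrocytes, 20 libraries in 4 groups of 5, was extracted with Trizol and prepared with a rapid RNA-seq library kit, per the labels' protocols. The authors deposited FPKM per gene, with gene coordinates and lengths. CASAVA 1.8 and HISAT2 2.0.5 were used, per the submitters' processing notes. No source used here gives the counting program, its strand setting or the build. GENCODE M21 (GRCm38) held 99.8% of the gene IDs, 98.3% of them with identical coordinates, so that build is used. FPKM times gene length gave whole fragments for 100% of values within 0.02, and from these the depths of 14653777 to 19365220 fragments were worked out. PCR fragments are not independent molecules, so floors and depths cover counting error only.

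The linear models of limma 3.58.1 (R 4.3.3) took log2(FPKM + 1), which understates the change of low genes. A gene entered if 5 or more of the 20 libraries had 1 FPKM or more, 12752 of 54532 genes. The model held a mean for each group over all 20 libraries, with empirical Bayes moderation and a trend, two-sided, with Benjamini-Hochberg adjustment over all genes tested and a threshold of 0.05. Each member was also tested by the exact two-sided permutation of 5 against 5 libraries, 252 regroupings. The steps were tested on simulated data. Alternatives were other pseudocounts, filters and scalings, library weights, a fit of only the 2 groups, a replicate block, leaving out each library, and leaving out the 4 that stand apart, the last chosen after seeing the data.

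The 10 members and the gene lists were chosen with earlier results of these data known. All members are named. Of the pathway lists, called genes are named, at most the 8 largest per list and comparison, and Sult2b1, Rxrb, Abca1, Abcg1, Insig1 and Papss2 whatever their values. Some genes that these rules would name are not reported here, so not every call of a list is given. Genes at 0 or under the filter that are named beside these were chosen after their values were seen.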

Additional observations from a re-analysis of the deposited data

Results flagged for a closer look

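Within each group of 5 libraries, 39 groups were examined for a single library far from the other 4 (its gap to the nearest over 0.71 of the range), and 6 such values were found. Chance gives about 1 in 20. In 25HC3S replicate 1, Cyp27a1 was low at 2.51 FPKM (others 3.84 to 3.94) and Nr1h2 was low at 14.5 FPKM (others 18.0 to 19.1). In the same library Rora was high at 6.41 FPKM (others 3.36 to 3.93) and Osbp was high at 30.6 FPKM (others 22.4 to 23.1). That library is one of the 4 that stand apart. Hsd3b7 was high in 25HC3S replicate 5 at 0.0642 FPKM (others 0 to 0.0185), which is a few fragments. Rora was low in GW3965 replicate 1 at 3.28 FPKM (others 3.65 to 3.74).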

How the results depend on the processing

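Of 1024 values of single members under alternative settings, 967 kept their side of the threshold, 46 lost a call and 11 gained one. There were 0 that changed sign while called in either setting. Among the 967 were 46 that changed sign without being called in either setting. For 25HC3S against Vehicle, the 1 member called lower became 0 with a filter of 5 FPKM, where Gpr183 was not tested, and 0 in a fit of only the 2 groups. It became 2, Ch25h and Gpr183, with library weights and without the 4 libraries. For GW3965 against Vehicle, the 1 called higher became 0 without a filter, with a filter of 5 FPKM, with library weights, in the fit of only the 2 groups, in the replicate block and without the 4 libraries. The 1 called lower became 0 without a filter, with a filter of 5 FPKM and in the fit of only the 2 groups, and 2, Ch25h and Cyp7b1, with library weights. It stayed 1 without the 4 libraries, but was then Ch25h. For 25HC3S against 25HC, the 1 called lower became 0 with a pseudocount of 5 FPKM (limma adjusted p = 0.0916), without a filter and with a filter of 5 FPKM. Another filter changes the number of genes the p-values are adjusted over, and the cause of the changes was not tested.

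Leaving out each library in turn, the number called higher ranged over 0 to 3 for 25HC against Vehicle and over 0 to 2 for GW3965 against Vehicle. For 25HC, leaving out Vehicle replicate 1 gave Nr1h2, Nr1h3 and Rxra and leaving out Vehicle replicate 5 gave Nr1h2. In the 20 libraries 3863 of 12752 genes had an unadjusted limma p under 0.05 for 25HC against Vehicle. The share of all genes called in each of these fits is not given here, so the counts are no result about the members. The number called lower ranged over 0 to 1 for 25HC against Vehicle (Cyp7b1 without Vehicle replicate 1), for GW3965 against Vehicle and for 25HC3S against 25HC. Median-of-ratios scaling changed no member's call.

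Deviations from the group means showed no clear pairing by replicate number. Of 30 same-numbered pairs 4 had a correlation of deviations over 0.1 (range -0.702 to 0.270), and 3 of 20 libraries correlated best with their own number. The check cannot exclude a shared animal or batch, because the 4 libraries that stand apart weigh on the means of their groups. With the replicate block, 0 members were called higher for GW3965 against Vehicle, 1 lower there, 1 lower for 25HC3S against Vehicle and 1 lower for 25HC3S against 25HC. The smallest members limit what the depth can show: Cyp7b1 rested on 24 to 136 fragments per library and Gpr183 on 41 to 157.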
